A study of Mus musculus with 3 samples.

Results

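Cortical neurogenesis and neuron identity genes were examined in a ChIP-seq study of the nucleoporin Seh1 in mouse neural stem cells. The group holds 9 genes, namely Neurog2, Eomes, Neurod1, Tbr1, Fezf2, Bcl11a, Bcl11b, Rbfox3 and Mapt, among 21779 protein-coding genes. Its peaks were all lines of the Seh1 and IgG peak lists that the authors' annotation gave to one of these genes, which is the gene with the nearest transcription start site. Peaks were taken by gene name alone, but the 9 genes were proposed with earlier results of these data known. It gave 20 of 16113 Seh1 peaks, a share of 0.124% (95% exact binomial interval 0.0758 to 0.192%). In the IgG list it gave 3 of 5314 peaks, a share of 0.0565% (0.0116 to 0.165%).

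The cells were wild-type primary neural stem cells from newborn mouse cortex, kept in a proliferation medium with 20 ng/ml EGF and 20 ng/ml bFGF and fixed with 1% formaldehyde for 10 min. There were 3 libraries, with 1 library per group: Seh1 immunoprecipitation, IgG immunoprecipitation (an antibody without a chromatin target, the background control) and input chromatin. All 3 groups shared genotype, medium and fixation, and the labels do not say how many animals or cultures they came from. Peaks were listed for the first 2 groups, and the list names pair each with input. With 1 library per group no value has a replicate error and no test compares the antibodies. Read depth is unknown, and the deposited score is 0 for every peak, so width is the only measure of a peak's size. Peak lists measure no transcript, so the labelled cell type could not be checked against its markers.

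As background, excitatory neurons of the cortex arise from radial glial stem cells, often through intermediate progenitors. Neurog2 is the proneural factor that starts this programme, Eomes (Tbr2) marks the intermediate progenitors, Neurod1 acts as progenitors become neurons, and Tbr1 specifies corticothalamic neurons of layer VI. Fezf2 and Bcl11b (Ctip2) direct subcerebral projection neurons of layer V, and Bcl11a (Ctip1) is a related zinc-finger factor of cortical projection neurons. Rbfox3, the splicing factor known as the antigen NeuN, and Mapt, the microtubule protein tau, mark mature neurons. Seh1 belongs to the Nup107-160 scaffold of nuclear pores, and some nucleoporins also contact chromatin.

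Seh1 peaks were given to 8 of the 9 genes. Bcl11a and Rbfox3 had 5 each, Neurog2 had 3, Bcl11b and Mapt had 2 each, and Eomes, Tbr1 and Fezf2 had 1 each. Neurod1 had none, and 0 of 16113 peaks allows a share of up to 0.0186% by counting error only. IgG peaks were given to 2 of the 9 genes, with 2 for Tbr1 and 1 for Neurod1. Thus Tbr1 had peaks of both lists, Neurod1 an IgG peak alone and the 7 others Seh1 peaks alone. The shares of all protein-coding genes with these combinations were not counted. The background over protein-coding genes was 31.9% with a Seh1 peak and 11.3% with an IgG peak. At least 5 Seh1 peaks, as for Bcl11a and Rbfox3, were given to 1.63% of protein-coding genes. An overlap with an IgG peak was found for 0 of the 20, and for 60 peaks (0.372%) of the whole Seh1 list.

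**Figure D1:**
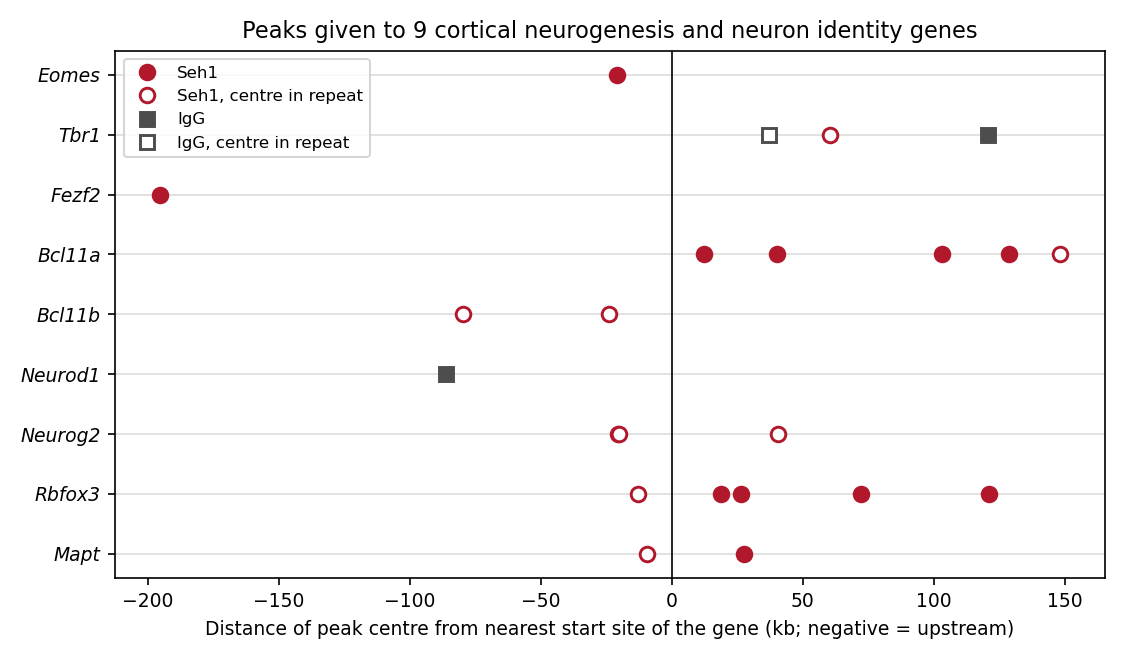
Distance in kb of each peak centre from the nearest start site of its gene, with upstream negative, for the 9 genes. Circles are the 20 Seh1 peaks and squares the 3 IgG peaks, open where the centre lies in a labelled repeat. The 2 upstream Neurog2 peaks lie on top of each other, and no symbol lies within 9 kb of a start site.

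Gene length bears on these counts. Among protein-coding genes of 1563 to 4217 bp, the stratum of Neurog2 (2.90 kb) and Neurod1 (4 kb), 21.5% were given a Seh1 peak. In the stratum of 7435 to 11728 bp, with Eomes (7.95 kb), Fezf2 (7.81 kb) and Tbr1 (11.3 kb), the share was 23.5%. It was 47.5% between 57306 and 108874 bp, with Bcl11b (93.7 kb), Bcl11a (97.0 kb) and Mapt (103 kb), and 63.2% among the longest genes, with Rbfox3 (422 kb). The count of 3 for Neurog2 was reached by 3.07% of genes of its stratum, 5 for Bcl11a by 2.39% and 5 for Rbfox3 by 6.98%. By contrast 21.5% of genes in their stratum reached the count of 2 that Bcl11b and Mapt had.

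No start site of the 9 genes held a peak, which was usual in this list. Among the promoter windows of 17492 protein-coding genes, from 250 bases before to 50 after the start, 78 overlapped a Seh1 peak. The closest Seh1 peak lay 9.38 kb upstream of Mapt, the next 12.1 kb downstream of Bcl11a, and the other genes had none within 13 kb. The 1 gene of 9 with a Seh1 peak within 10 kb of its start site stands beside 9.68% of protein-coding genes. Within 1 kb lay 0 of the 20 peaks and 1.92% of all Seh1 peaks, and 0 of 20 allows a share of up to 15%. The median distance of the 20 peaks was 33.8 kb, close to the 37.8 kb of all Seh1 peaks, and 75% of the 20 and 74.8% of all lay within 100 kb. Upstream lay 8 of the 20 peaks (40%, interval 19.1 to 63.9%), beside 43.4% of all.

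Because distances are counted from the start site, the 250 bases before it are shown for the gene without a Seh1 peak and for one of the genes with most. The RefSeq sequences (build GRCm38.p6) are printed 5′ to 3′ in the direction of transcription, and capitals mark each CG dinucleotide. The Neurod1 window is chr2:79456637-79456886 on the minus strand and the Bcl11a window is chr11:24080445-24080694 on the plus strand.
Neurod1: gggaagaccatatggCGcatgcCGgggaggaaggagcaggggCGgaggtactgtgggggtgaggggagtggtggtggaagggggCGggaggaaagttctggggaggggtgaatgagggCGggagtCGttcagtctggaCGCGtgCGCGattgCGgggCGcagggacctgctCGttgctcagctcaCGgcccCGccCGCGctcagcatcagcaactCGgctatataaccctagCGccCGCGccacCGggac
Bcl11a: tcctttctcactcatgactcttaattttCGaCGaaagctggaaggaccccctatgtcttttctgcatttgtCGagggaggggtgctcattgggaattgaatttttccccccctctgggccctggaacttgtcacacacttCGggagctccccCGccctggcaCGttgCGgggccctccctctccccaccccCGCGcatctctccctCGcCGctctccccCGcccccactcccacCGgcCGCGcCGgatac
Neurod1 held 22 CG dinucleotides and Bcl11a 16, whereas the median of 27025 RefSeq windows was 6 and the upper quartile 16. Windows were found for 8 of the 9 genes and held between 3 (Rbfox3) and 22 CG dinucleotides. The nearest Seh1 peak centre lay 202 kb from the Neurod1 start site and 12.1 kb from that of Bcl11a. In windows of 300 bases, from 250 before to 50 after the start, 3 motifs that factors of this programme are known to bind were searched on both strands. The E-box CAGATG was in 17.2% of all windows, the E-box CAGCTG in 16.1% and the T-box AGGTGTGA in 1.27%. None was in the 8 windows of the group, which says only that these letters are not there. The motifs were counted separately, and overlapping matches would each have counted.

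Neurog2, the proneural factor at the head of the programme, lies on chromosome 3 from 127632733 to 127635636, between Zgrf1 14.7 kb on its upstream side and Alpk1 31.1 kb on its downstream side. All 3 of its Seh1 peaks lay inside these neighbours. A pair in intron 21 of 25 of Zgrf1, which encodes a zinc-finger helicase, had centres only 585 bp apart. The first of the pair, from 127612362 to 127612604, was 20.7 kb upstream of the Neurog2 start site and had the minimum width of 243 bp. The second, from 127612911 to 127613225, was 20.1 kb upstream, 315 bp wide and centred in a B4A element of the SINE class. The third, from 127673654 to 127673898, was 40.6 kb downstream in intron 11 of 13 of Alpk1, a protein kinase gene, and was centred in an Lx5 element of the L1 family. The nearest IgG peak lay 792 kb or more from each of the 3.

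Eomes, the gene of the intermediate progenitor factor Tbr2, spans 118478186 to 118486132 on chromosome 9. Its 1 Seh1 peak, from 118456856 to 118457335, lay 21.1 kb upstream in sequence that the authors classed as intergenic and that RefSeq assigns to the non-coding RNA gene Gm33408. At 480 bp it was wider than 96.4% of Seh1 peaks, and it lay in no labelled repeat. It was the innermost of a row of peaks: 4 further Seh1 peaks at 30.5, 56.0, 88.5 and 125 kb upstream of Eomes were given to the non-coding gene 4933432G23Rik. On the other side, beginning in the last intron of Golga4, a Golgi tether gene 20.1 kb from Eomes, 5 Seh1 peaks between 99.8 and 209 kb were given to Itga9, an integrin gene. Within 250 kb of the Eomes start site there were thus 10 Seh1 peaks and 0 IgG peaks.

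Neurod1, on chromosome 2 from 79452637 to 79456636, was given only an IgG peak. That peak, from 79542694 to 79543071, was 378 bp wide and lay 86.2 kb upstream in intergenic sequence. The nearest Seh1 peak, 202 kb upstream, lay in exon 11 of 18 of Itprid2, where it was given to Itprid2 itself. A second IgG peak, in intron 2 of 17 of Itprid2, was 182 kb away. Neurod1 therefore had 1 Seh1 and 2 IgG peaks within 250 kb, although the Seh1 list was the longer one.

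Tbr1, which specifies deep-layer neurons, lies on the same chromosome from 61802863 to 61814114. Its Seh1 peak, from 61864816 to 61865089, lay 60.5 kb downstream in the 232 kb gap before Slc4a10, a bicarbonate transporter gene, and was centred in a MuRRS-int element of the ERV1 family. Its IgG peaks lay on either side of that peak, at 37.1 kb in an Lx element of the L1 family and at 120 kb in no repeat. The nearer IgG centre was 23.4 kb from the Seh1 centre. Within 250 kb of the start site were 2 Seh1 and 6 IgG peaks, and 2 of those IgG peaks were centred in the young L1 types L1Md_F2 and L1Md_A. Tbr1 and Neurod1 were the only genes of the 9 with more IgG than Seh1 peaks in that window.

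Fezf2, a zinc-finger factor of corticospinal neurons, spans 12338992 to 12346803 on chromosome 14. The 1 Seh1 peak given to it, from 12540859 to 12541323, was the most distant of the 20, at 195 kb upstream. It lay in intron 8 of 29 of Cadps, a gene of vesicle exocytosis whose nearer end is 25.8 kb from Fezf2, and was 465 bp wide, wider than 95.7% of Seh1 peaks. The peak lay in no labelled repeat, and the IgG peak nearest to it was 215 kb away. A further Seh1 peak 199 kb downstream, in intron 10 of 29 of Ptprg, a receptor phosphatase gene, was given to Ptprg. Thus no Seh1 peak lay within 100 kb of the Fezf2 start site. By contrast 1 IgG peak did, 49.7 kb downstream in intron 3 of 4 of 3830406C13Rik, the gene it was given to.

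Bcl11a and Bcl11b are paralogous zinc-finger genes of similar length, and their peaks lay on opposite sides of the start site. Bcl11a, on chromosome 11 from 24076564 to 24173558, had all 5 Seh1 peaks downstream of its start site, spread over 136 kb with 19.3 to 62.9 kb between neighbouring centres. The first 2 lay in intron 2 of 3 of the gene, from 24092711 to 24092956 (246 bp wide, 12.1 kb) and from 24120598 to 24120855 (258 bp, 40 kb). The other 3 lay beyond its 3′ end, in a gap of 2214 kb before the next protein-coding gene, Fancl, at 103, 129 and 148 kb from the start. The peak at 129 kb, from 24209123 to 24209615, was 493 bp wide, wider than 97.0% of Seh1 peaks, and lay in the non-coding gene Gm12066. The peak at 148 kb had the minimum width and was centred in MER77B, an ERVL element at only 2 Seh1 peaks in all, within the non-coding gene Gm33440. Of the 5, this was the only one in a repeat.

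Bcl11b, on chromosome 12 from 107910403 to 108004145, had both Seh1 peaks upstream and none in the gene. They lay between it and Setd3, a methyltransferase gene 102 kb away. The nearer, from 108027110 to 108027492, was 383 bp wide, 23.9 kb upstream and centred in MTE2a, an ERVL-MaLR element. The farther, from 108083092 to 108083413, was 322 bp wide, 79.8 kb upstream and centred in IAPEz-int, the internal part of an intracisternal A particle. IAPEz-int was at 127 Seh1 peaks (0.788%) and 22 IgG peaks (0.414%), and MTE2a at 20 and 7. The handling of multiply mapped reads is not stated, so which copy of IAPEz-int this peak marks is uncertain. The nearest IgG peak was 1231 kb or more from both.

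Rbfox3 spans 421838 bp on chromosome 11, from 118489760 to 118911597 on the minus strand, and its transcripts have several start sites. The authors' distances run to the nearest of these. Of its 5 Seh1 peaks, 4 lay in its own introns. A pair in intron 1 of 13 had centres 7.59 kb apart, from 118890702 to 118891174 (473 bp wide, 18.6 kb from the start of NM_001039168) and from 118883228 to 118883470 (243 bp, 26.2 kb). Others lay in intron 2 of 14, from 118688636 to 118688885 (250 bp, 72.3 kb from the start of NM_001285438), and in intron 3 of 14, from 118640010 to 118640294 (285 bp, 121 kb). The fifth, from 118924490 to 118924847, was 13.1 kb upstream of the outermost start site and centred in ID_B1, a SINE element. A further intronic peak, from 118588388 to 118588682, was given to Engase, a deglycosylation enzyme gene beyond the 3′ end, whose start site was nearer. The gene body therefore held 5 Seh1 peaks, or 1.19 per 100 kb. The nearest IgG peak was 6005 kb or more from the peaks given to Rbfox3.

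Mapt, the tau gene, spans 104229409 to 104332090 on chromosome 11. Its upstream Seh1 peak, from 104221757 to 104222365, was the widest of the 20 at 609 bp, wider than 99.2% of all Seh1 peaks, and the closest to a start site at 9.38 kb. It was centred in ORR1B1, an ERVL-MaLR element found at 15 Seh1 and 8 IgG peaks. The second, from 104258945 to 104259237, lay 27.7 kb downstream in intron 1 of 11 of Mapt, in no repeat, and was 293 bp wide. Upstream of it, 8 further Seh1 peaks lay from 30.2 to 225 kb from the start site and were given to Sppl2c, Crhr1 or Arf2. On the downstream side, within 250 kb, were 0 Seh1 peaks beyond the one in the gene and 4 IgG peaks in introns of Kansl1, a chromatin regulator gene 1.41 kb from Mapt. A further IgG peak lay among the upstream Seh1 peaks, 47.5 kb from the start site, and was given to Sppl2c.

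**Figure D2:**
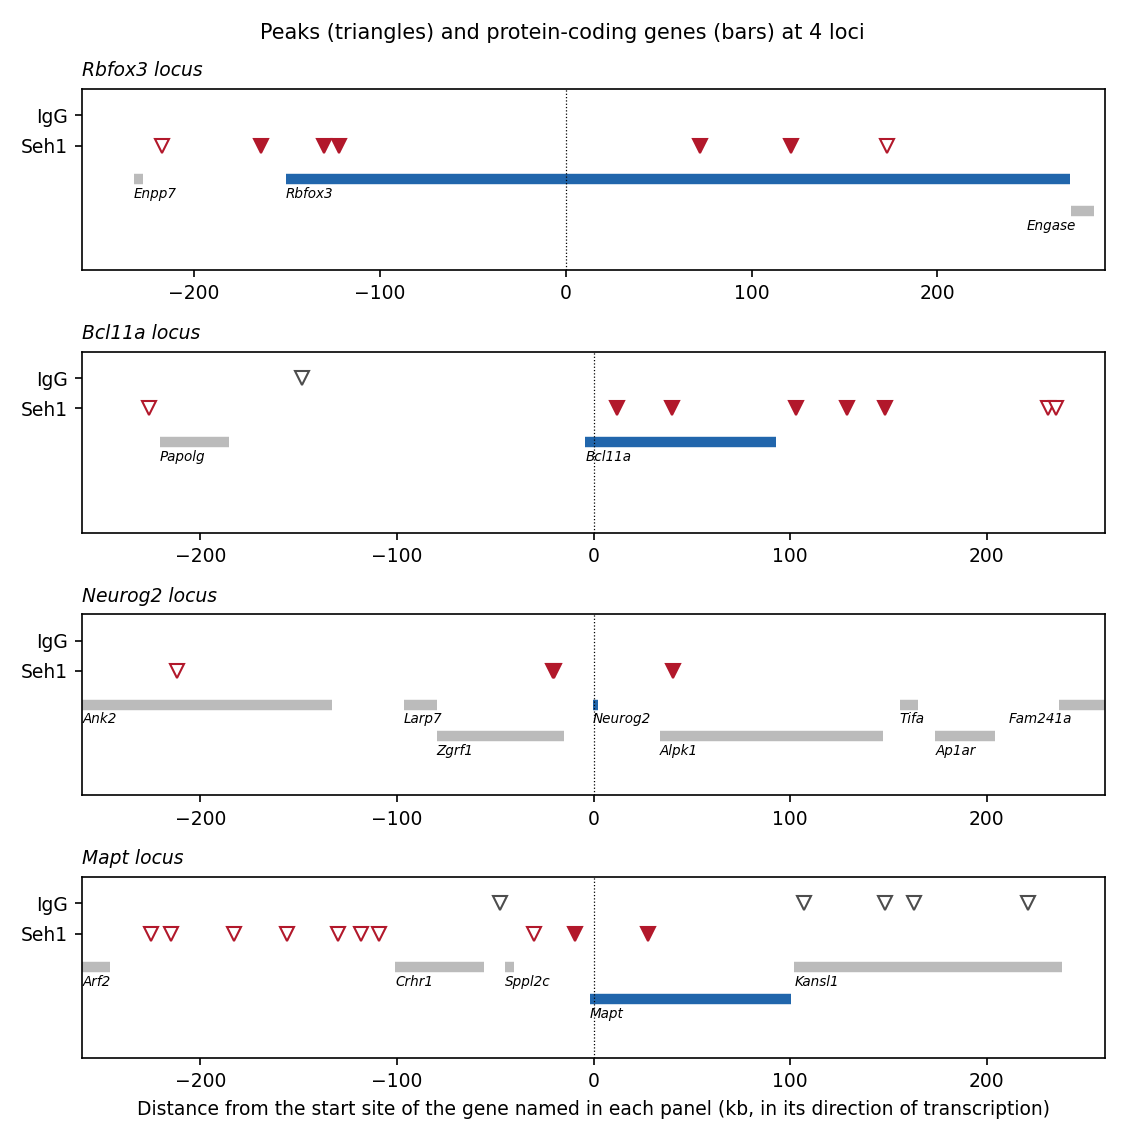
Seh1 and IgG peak centres (triangles) and protein-coding genes (bars) by distance in kb from the start site at zero, in the direction of transcription, at Rbfox3 (start site of NM_001285438), Bcl11a, Neurog2 and Mapt. Filled triangles are peaks given to the gene named in the panel and open ones were given to other genes. At Neurog2 the 3 filled triangles lie over Zgrf1 and Alpk1, and at Rbfox3 there are 0 IgG peaks.

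Peaks inside the genes were found at 3 of the 4 longest. Of the 9 genes, 3 held a Seh1 peak centre inside the gene: Bcl11a with 2, Rbfox3 with 5 and Mapt with 1. The share over all protein-coding genes was 19.5%. Together the 9 genes held 8 peak centres in 0.749 Mb, or 1.07 per 100 kb, where all protein-coding genes held 0.690 per 100 kb. The value of 1.07 rests on 8 counts, 5 of them in Rbfox3, and the difference was not tested. For IgG the densities were 0 and 0.194 per 100 kb, and 0 peaks in this length allow up to 0.4 per 100 kb by 3 counts. By the authors' classes, 11 of the 20 Seh1 peaks were intronic (55%, interval 31.5 to 76.9%) and 9 intergenic (45%, 23.1 to 68.5%), beside 36.8% and 54.3% of all Seh1 peaks. None lay in an exon, a class that held 5.37% of all. Of the 11 intronic peaks, 4 lay in an intron of a gene other than the one they were given to, namely in Zgrf1, Alpk1 and Cadps. This 36.4% (10.9 to 69.2%) stands beside 32.3% of 5900 intronic Seh1 peaks with a matched host, so such placement was common in the whole list.

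Repeats lay at the centre of 8 of the 20 Seh1 peaks (40%, interval 19.1 to 63.9%), beside 39.8% of all Seh1 peaks. They were 5 LTR elements, 2 SINE elements and 1 LINE element, each of a different name. LTR elements therefore made up 25% (8.66 to 49.1%) of the 20, beside 17% of all Seh1 peaks, and the interval includes the latter. Of the 9 intergenic peaks, 6 lay in a repeat: these were the single peak of Tbr1, both of Bcl11b, and 1 each of Bcl11a, Rbfox3 and Mapt. All 7 peaks in introns of their own gene were outside repeats. Repeat shares of all intergenic and all intronic Seh1 peaks were not counted, so this split has no background beside it. Without repeats, Tbr1 and Bcl11b kept no Seh1 peak. Of the element types involved, B4A was at 191 Seh1 peaks (1.19%) and 13 IgG peaks (0.245%), and MuRRS-int at 20 Seh1 and 0 IgG peaks.

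The 20 Seh1 peaks had a median width of 291 bp and ranged from 243 to 609 bp, and all Seh1 peaks had a median of 266 bp. The minimum width was found for 3 of the 20 (15%, interval 3.21 to 37.9%) and for 27.2% of all. Of the genes with several peaks, Bcl11a, Neurog2 and Rbfox3 each had 1 peak of minimum width. Peaks wider than 95% of the list were found at 5 genes: Mapt, Bcl11a, Eomes, Rbfox3 and Fezf2, with 1 each. None of the widest peaks at Bcl11a, Eomes, Rbfox3 and Fezf2 was in a repeat, whereas that of Mapt was. Tbr1 had a single peak of 274 bp, close to the median of the list.

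**Figure D3:**
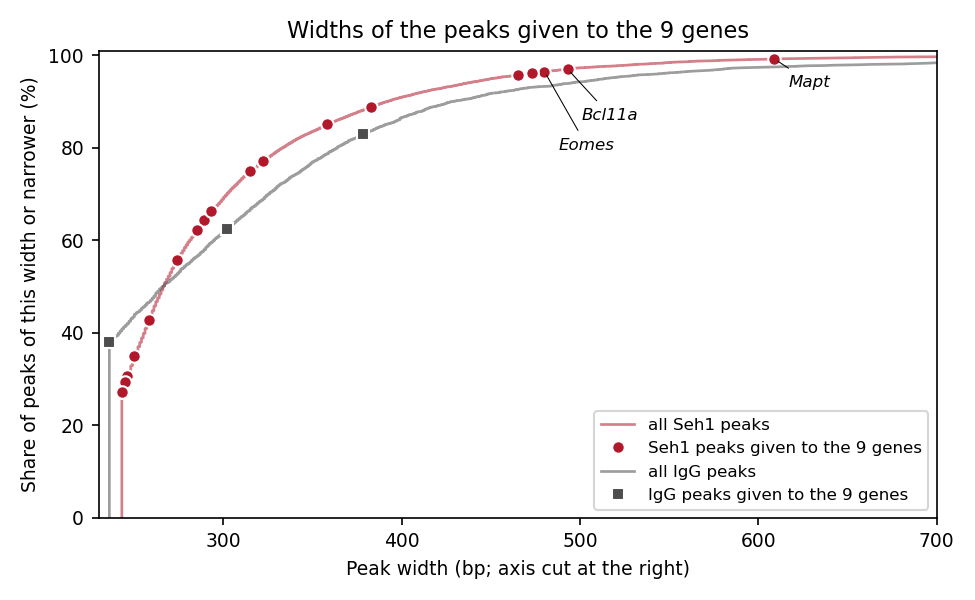
Cumulative share in % of peaks by width in bp for all Seh1 and all IgG peaks (lines), with the peaks given to the 9 genes as points on them. The Mapt peak of 609 bp is the widest point, and the width axis leaves out the widest peaks of both lists.

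Counted by distance alone, whichever gene a peak was given to, every one of the 9 start sites had a Seh1 peak within 250 kb. For Rbfox3 the start site of NM_001285438 was used. The counts were 10 for Eomes, 10 for Mapt, 8 for Bcl11a, 7 for Rbfox3, 4 for Neurog2, 2 each for Tbr1, Fezf2 and Bcl11b, and 1 for Neurod1. The median over 17492 protein-coding start sites was 3 (quartiles 2 and 5), and 92.3% had at least 1. Counts of 10 or more, as at Eomes and Mapt, were found at 3.65% of start sites, whereas 79.6% had 2 or more. The counts of 8 at Bcl11a, 7 at Rbfox3 and 4 at Neurog2 were reached at 10.1%, 16.1% and 49.4% of start sites. Neurog2, whose nearest-gene count was high for its length, was thus near the middle when peaks were counted by distance. Of the 46 Seh1 peaks in the 9 windows, 26 were given to other genes. For IgG the windows held 6 peaks at Tbr1, 5 at Mapt, 2 at Neurod1, 1 at Fezf2 and 1 at Bcl11a, and 0 at the other 4. At least 1 IgG peak was thus found at 5 of the 9 start sites and at 45.2% of all protein-coding ones, whose median was 0. Nearest-gene counts and window counts thus ranked Eomes and Mapt differently, since most peaks around both went to neighbours.

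**Figure D4:**
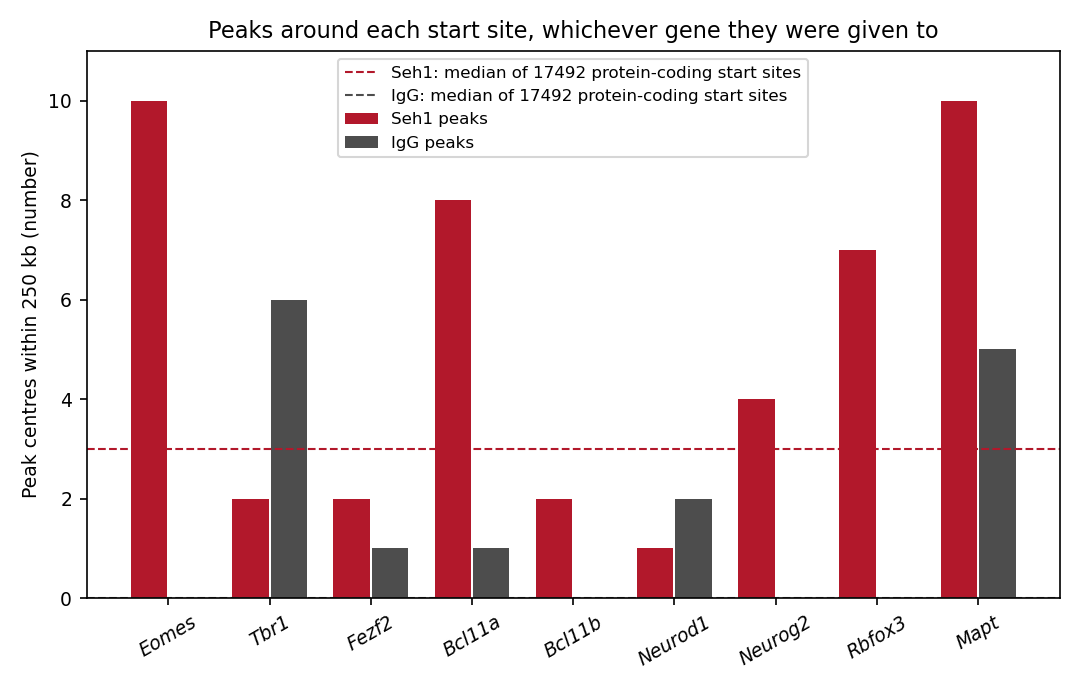
Number of Seh1 and IgG peak centres within 250 kb of the start site of each of the 9 genes (bars), with dashed lines at the median over 17492 protein-coding start sites. Eomes and Mapt reach 10 Seh1 peaks, and IgG bars exceed Seh1 bars only at Tbr1 and Neurod1.

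A list of 40 other genes of cortical neurogenesis and neuron identity, listed apart from the 9, was counted the same way. Of these 40 genes, 24 (60%) were given a Seh1 peak and 10 (25%) an IgG peak; 8 had both and 14 had neither. The shares over all protein-coding genes were 31.9% with a Seh1 peak and 11.3% with an IgG peak, and those with both or neither were not counted. Lengths were not matched, and the list runs from Neurog1 (1.70 kb) to Rbfox1. Several of its genes, such as Sox5 (954 kb) and Foxp2 (541 kb), fall in the longest stratum, where 63.2% were given a Seh1 peak. In the stratum of Neurog2 and Neurod1 that share was 21.5%, and an effect of length on the 60% was not tested. The 24 genes shared 44 Seh1 peaks, none overlapping an IgG peak, and 16 of them had just 1. Rbfox1, a splicing factor gene of 1528 kb, had the most with 7 and the nearest, 1.45 kb downstream of a start site in its intron 1 of 13. It was the only one of the 40 with a Seh1 peak within 10 kb, beside 9.68% of all protein-coding genes. Next by number came Lmo4, a LIM-domain cofactor gene, with 5 and Map1b, a microtubule protein gene, with 4. Next by distance came the neurofilament gene Nefl at 11.1 kb, Neurod6, a relative of Neurod1, at 16.7 kb, the splicing factor gene Rbfox2 at 18.4 kb, the RNA-binding protein gene Elavl3 at 20.2 kb and the nuclear receptor gene Rorb at 21.9 kb. Rorb and Mef2c, a neuronal transcription factor gene, had more IgG than Seh1 peaks, with 4 and 2 for Rorb and 3 and 1 for Mef2c.

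Genes with the same peak counts as the top 2 were picked by length. Apart from these 2, 92 protein-coding genes had 5 Seh1 and 0 IgG peaks. Nearest in length to Bcl11a were Cfap58 (97.7 kb), Ankrd55 (95.6 kb) and Spred2 (99.6 kb), which held 5, 1 and 0 of the Seh1 peak centres in the gene itself, where Bcl11a held 2. Nearest in length to Rbfox3 were Zmat4 (416 kb), Dst (401 kb) and Cacna1d (451 kb), with 3, 5 and 9 peak centres in the gene, where Rbfox3 held 5. This likeness rests on counts in 2 libraries.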

How the data were processed

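Peak lists of 1 Seh1 and 1 IgG library were analysed. Per the file headers, the authors annotated peaks with HOMER annotatePeaks.pl against mm10, which gave each peak a class, repeat name, nearest start site, signed distance in bp and gene. The submitters' processing notes name Bowtie2 and HOMER, and list the builds hg18 and hg38; the coordinates are in the headers' mm10. For the peak caller, its threshold and read filters, nothing is given in the sources used here. Depth is unknown, and the deposited peak score was 0 throughout.

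Peaks were taken by gene name. Gene spans and promoter windows came from RefSeq tables of GRCm38.p6, the same assembly, without genes starting below 3 Mb except on Y. Length strata were 10 equal groups of protein-coding genes. Overlap meant at least 1 bp. Intervals are 95% exact binomial (Clopper-Pearson, scipy 1.17.1), limits at 0 use 3 counts, and both cover counting error only. No test was run, because each group had 1 library. Counting steps were tested on simulated data. The genes and lists were chosen with earlier results of these data known. Named genes were the 9, hosts of their peaks, protein-coding neighbours, the 6 of the 40 other genes with the nearest and the 3 with the most Seh1 peaks, and 3 genes of like counts and length for each top gene. Mef2c, Rbfox family comparisons and genes given other peaks in the windows were named after their values were seen. Motifs in peaks were not analysed here. Alternatives covered peak width, gene assignment, distance, overlap and repeats.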

Additional observations from a re-analysis of the deposited data

How the results depend on the processing

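Among peaks wider than the minimum, 8 genes still had a Seh1 peak and 17 of the 20 peaks remained. Counting only peaks centred inside the gene gave 3 genes and 8 Seh1 peaks, 0 genes and 0 IgG peaks, and 14 of the 40 other genes with a Seh1 peak in place of 24. Genes with a Seh1 peak within 10 kb of the start site numbered 1, and were 0 within 5 kb and 3 within 20 kb. The following were chosen after seeing the data. Without repeat-centred peaks 12 Seh1 peaks at 6 genes were left. Assignment to the nearest protein-coding start site of the RefSeq promoter table, which has no Mapt window and fewer start sites, gave 34 Seh1 peaks at 7 genes, with 15 of the 20 peaks staying with their gene and 19 gained. The count of 4 peaks in introns of another gene was 2 without repeats, and the 46 peaks within 250 kb of the start sites were 17 within 100 kb, at 7 genes. Over 17492 protein-coding start sites, 71.4% had a Seh1 peak within 100 kb. No Seh1 peak of the 9 genes overlapped an IgG peak under any of the 3 definitions tried. Depth limits the absence of peaks, since it is unknown. No paired analysis was possible because each group had 1 library.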

Other observations

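The 3 genes of the Rbfox family of splicing factors were all given several Seh1 peaks, a set noticed after the values were seen. Rbfox1 (1528 kb) had 7 Seh1 peaks and 1 IgG peak, Rbfox3 (422 kb) had 5 and 0, and Rbfox2 (229 kb) had 3 and 0. Inside the genes lay 6, 5 and 3 Seh1 peak centres, or 0.393, 1.19 and 1.31 per 100 kb, beside 0.690 over all protein-coding genes. These centres were counted whichever gene the peak was given to. Of the peaks given to Rbfox1, those at 1.45 and 22.3 kb from a start site were in its introns. Those 31.6 and 124 kb upstream, and 350, 523 and 563 kb downstream, were classed as intergenic. All 3 Rbfox2 peaks were in its own introns, from 18.4 to 27.4 kb from a start site, and 2 of them had the minimum width of 243 bp. Only 1 Rbfox1 peak was in a labelled repeat, an ERVK element named RMER13B at 523 kb, and no Rbfox2 peak was. All 3 genes are in the longest of 10 length strata of protein-coding genes, of which 63.2% were given a Seh1 peak.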
